A study of Homo sapiens with 12 samples.

Results

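The Fanconi anemia and homologous recombination genes examined here were 29 named genes: FANCA, FANCB, FANCC, FANCD2, FANCE, FANCF, FANCG, FANCI, FANCL, FANCM, BRCA1, BRCA2, PALB2, BRIP1, BARD1, RAD51C, RAD51D, XRCC2, XRCC3, RAD54L, RAD54B, BLM, RMI1, RMI2, EXO1, DNA2, UBE2T, SLX4 and ERCC4. They were chosen by name and function, with earlier results of these data known. All 29 were listed among the 28008 genes of the MUC1-C silencing table and among the 25435 genes of the MUC1-C overexpression table. In the silencing experiment all 29 passed the filter on low counts, and in the overexpression experiment 28 passed, FANCF being the exception.

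RNA-Seq was performed on 2 pairs of prostate cancer cell populations, with 3 libraries in each of 4 groups. LNCaP-ER/tet-MUC1shRNA cells are LNCaP cells that were selected in rising enzalutamide, an androgen receptor inhibitor, and that carry a MUC1 shRNA under a tetracycline-inducible promoter and puromycin resistance; they were given DMSO as vehicle or 500 ng/mL doxycycline (DOX) for 7 days. Both of these groups carry the shRNA cassette and the resistance, and no library of DOX-treated cells with a control shRNA was analysed, so DOX itself and the shRNA cannot be told apart. LNCaP/MUC1-C OE cells are LNCaP cells transduced with MUC1-C, the transmembrane subunit of the mucin MUC1, under a CMV promoter, and they were compared with LNCaP cells that are labelled wild-type but stand under the name vector in the table. The construct is given as in the study's methods, whereas the sample titles write shMUC1-C OE and the treatment label reads tetMUC1-C, a conflict that was not settled beyond the high MUC1 counts given below. The labels state triplicate cultures of each line and not separate selections or transductions, so the p-values given here measure only the spread between these libraries.

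As background, the Fanconi anemia pathway removes crosslinks that join both DNA strands. Its core complex, with FANCL as the ubiquitin ligase and UBE2T as the conjugating enzyme, attaches ubiquitin to the FANCI-FANCD2 pair, after which nucleases held by SLX4 cut the crosslink out. The broken strand is then mended by homologous recombination, in which EXO1 and DNA2 trim the ends, BRCA1-BARD1, PALB2 and BRCA2 prepare the strand for pairing with an intact copy, RAD51C, RAD51D, XRCC2, XRCC3 and the RAD54 proteins assist the pairing, and BLM with RMI1 and RMI2 resolves the joined molecules. Loss of BRCA2 and its partners is known in advanced prostate cancer, and many of these genes are transcribed mainly in S phase, in part through E2F factors.

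Promoters were given in the RefSeq tables (GRCh38.p14) for 25 of the 29 genes, with no entry for FANCI, RAD54B, RMI2 and DNA2. The windows of 250 bases before to 50 bases after each start were searched on both strands for the E2F letters TTTCCCGC, TTTGGCGC, TTTGCCGC and TTTCGCGC, and 6 of 25 genes (24.0%) held a match, against 3.31% of 35116 promoters and 3.99% of 27305 genes in the same table. The 6 are printed below 5′ to 3′ on the gene's own strand, from 190 bases before to 30 bases after the start, because they are the members with these letters, which stand in capitals (the reverse complement where it lies on the other strand).
FANCD2 (chr3:10026247-10026466, plus strand): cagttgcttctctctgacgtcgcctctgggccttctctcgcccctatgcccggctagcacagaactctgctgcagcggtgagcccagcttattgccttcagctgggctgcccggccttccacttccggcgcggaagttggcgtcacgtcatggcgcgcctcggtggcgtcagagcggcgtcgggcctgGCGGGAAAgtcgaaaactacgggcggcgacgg
FANCC (chr9:95317680-95317899, minus strand): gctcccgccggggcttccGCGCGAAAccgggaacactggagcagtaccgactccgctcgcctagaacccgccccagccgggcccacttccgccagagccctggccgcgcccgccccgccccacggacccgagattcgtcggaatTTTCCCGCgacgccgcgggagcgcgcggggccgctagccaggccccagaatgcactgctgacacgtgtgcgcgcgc
FANCA (chr16:89816618-89816837, minus strand): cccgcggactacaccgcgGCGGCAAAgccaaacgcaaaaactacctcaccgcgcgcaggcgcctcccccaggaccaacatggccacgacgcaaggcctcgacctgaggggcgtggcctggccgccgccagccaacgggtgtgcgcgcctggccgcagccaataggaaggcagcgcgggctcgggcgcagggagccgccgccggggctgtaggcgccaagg
RMI1 (chr9:83980615-83980834, plus strand): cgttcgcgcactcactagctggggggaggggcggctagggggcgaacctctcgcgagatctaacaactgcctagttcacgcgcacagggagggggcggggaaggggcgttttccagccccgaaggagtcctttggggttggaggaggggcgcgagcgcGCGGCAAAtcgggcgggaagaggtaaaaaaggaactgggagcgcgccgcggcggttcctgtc
XRCC2 (chr7:152676112-152676331, minus strand): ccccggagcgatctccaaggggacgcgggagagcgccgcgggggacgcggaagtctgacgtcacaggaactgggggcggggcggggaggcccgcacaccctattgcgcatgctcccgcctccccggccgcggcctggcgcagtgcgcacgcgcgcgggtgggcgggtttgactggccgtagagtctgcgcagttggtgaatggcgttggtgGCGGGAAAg
EXO1 (chr1:241848014-241848233, plus strand): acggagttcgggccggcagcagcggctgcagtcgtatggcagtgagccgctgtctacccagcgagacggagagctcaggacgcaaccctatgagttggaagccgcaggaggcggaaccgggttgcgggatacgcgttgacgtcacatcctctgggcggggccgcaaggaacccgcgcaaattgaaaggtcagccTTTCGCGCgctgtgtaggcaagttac
The match began 2 bases before the start of FANCD2 and 32 bases before that of RMI1, but 5 bases into the transcript of EXO1 and 22 bases into that of XRCC2. FANCC held 2 matches, which began 172 and 46 bases before its start. The letters of the cell cycle homology region, TTTGAA, were in 3 of 25 members and in 18.2% of all genes with a promoter (15.2% of promoters). The letters CCAAT were in 11 members (44.0%) and in 39.7% of genes (34.6% of promoters), and the GC box GGGCGG in 19 (76.0%) and in 48.3% of genes (45.0% of promoters). A match is a description of letters and not of a bound factor.

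The silencing libraries held 28045894 to 45807989 counts and the overexpression libraries 13806856 to 19208944. Of MUC1 the vehicle replicates 1 to 3 held 26, 10 and 13 counts and those labelled DOX held 3, 42 and 8, so DOX replicate 2 is contrary to what its label states. In that library 11.2% of listed genes were at 0 against 27.95% to 38.1% in the other 5. With so few MUC1 counts, such as 10 in vehicle replicate 2 beside 8 in DOX replicate 3, silencing was not established here for any library. The silencing experiment is named for its design. In the overexpression experiment MUC1 had 25 to 31 counts in LNCaP and 9168 to 12622 in MUC1-C OE libraries. The 10 luminal prostate markers summed to 4823 to 4932 CPM (counts scaled to a fixed library total) in vehicle libraries and 5639 to 6090 in those labelled DOX. In the overexpression experiment they summed to 375 to 391 CPM in LNCaP and to 89.2 to 100.2 in MUC1-C OE, where 8 of 10 were called lower and KLK3, KLK2 and FOLH1 had 0 counts in each library, while the 5 basal and mesenchymal markers, of which VIM and CAV1 were called higher, summed to 473 to 520 CPM in LNCaP and 1202 to 1286 in MUC1-C OE. Most of the basal and mesenchymal sums was VIM, at a mean of 453 TMM-normalized CPM in LNCaP and 1277 in MUC1-C OE. KRT5 had 0 counts in each overexpression library, and KRT14 and TP63 had at most 2 and 1. In the silencing experiment the 5 markers of this list summed to 5.06 to 6.92 CPM in vehicle and 24.6 to 49.8 in the libraries labelled DOX. VIM was called higher there, from a mean of 5.31 to 32.9 TMM-normalized CPM, and KRT14 was not called. KRT5, TP63 and CAV1 were not tested there. The neuroendocrine, fibroblast and leukocyte markers summed to at most 15.9 CPM in any silencing library and to at most 61.1 in any overexpression library. The luminal identity of the MUC1-C OE cells was therefore not borne out by these markers. In the LNCaP libraries too the luminal sum was below that of the basal and mesenchymal markers, with mean TMM-normalized values of 8.32 CPM for FOLH1, 2.32 for EPCAM and 1.59 for KLK2 against 453 for VIM, so the label is only weakly borne out there, and the part of these changes in the results below was not tested.

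In the silencing experiment, the members called were lower in the libraries labelled DOX, and the largest of these drops were those of FANCD2, BRIP1, BLM and FANCI. Counts were scaled by edgeR's TMM method, and a gene was called lower or higher where the quasi-likelihood test of edgeR, adjusted after Benjamini-Hochberg (BH) over all 14683 genes tested, gave an adjusted p under 0.05. By this rule 14 of 29 members (48.3%) were called lower, where 14.5% of all genes were, and 0 were called higher, where 12.8% of all genes were. At an unadjusted p under 0.05 there were 18 members, each of them lower, where 21.3% of all genes were lower. DESeq2 called 15 members lower and 0 higher, where it called 8.16% of its 25480 genes lower and 9.69% higher. That larger set had no filter on low counts, so these shares are not on the same footing as those of the 14683. The 3 vehicle libraries lay above all 3 libraries labelled DOX for 17 members, against 23.0% of all genes, and below them for 0, against 21.2%. The median log2 fold change of the members was -0.61, and that of all genes -0.02. The 29 genes added up to 1606, 1375 and 1404 TMM-normalized CPM in vehicle replicates 1 to 3 and to 1090, 809 and 884 in the libraries labelled DOX, so the groups did not overlap. Because these are bulk libraries, fewer cells that transcribe a gene and less of its RNA per cell cannot be told apart.

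**Figure D1:**
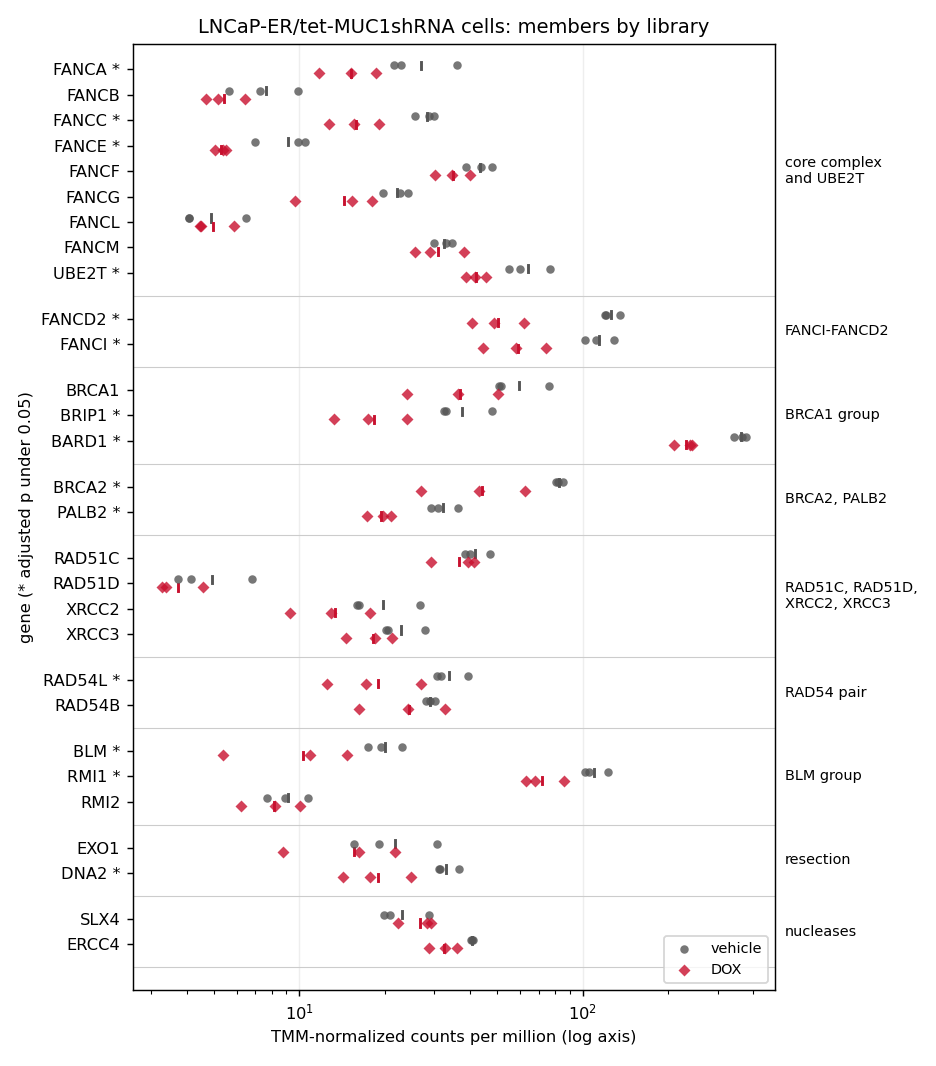
TMM-normalized CPM (log axis) of the 29 genes, grouped by role, in the 3 vehicle libraries (grey circles) and the 3 libraries labelled DOX (red diamonds); vertical ticks are group means and asterisks mark an adjusted p under 0.05. For 17 genes all vehicle libraries lie to the right of all libraries labelled DOX, and for none do they lie to the left.

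The libraries within a group were not alike. Vehicle replicate 1 was the highest vehicle library for 23 of 29 members, and the library labelled DOX replicate 2 the lowest of its group for 21, replicate 3 for the other 8. Without DOX replicate 2, whose MUC1 count was contrary to its label, 14 members were again called lower, 13 of them the same, with FANCA lost and FANCF gained. Without the library labelled DOX replicate 3 the number fell to 5 (BARD1, FANCC, FANCD2, FANCI and PALB2), and it was 10 without vehicle replicate 1, 2 or 3 and 17 without DOX replicate 1. Among all genes, the percentage called lower moved as well, to 7.77% without DOX replicate 3, to 13.4%, 8.22% and 7.61% without vehicle replicate 1, 2 and 3, and to 10.8% without DOX replicate 1. Without DOX replicate 2 it rose to 17.3%. In that fit the median log2 fold change of the members was -0.43, and 24 lay below the median of all genes, against 27 with all libraries. Scaling mattered as well. On the deposited TPM, log2(TPM + 1) tested with limma, the median of all genes lay at 0.45. There only FANCD2 was called lower and SLX4 higher, where 2.23% of all genes were called lower and 43.8% higher. Of the 29 members, 28 lay below the median of all genes, and their own median, at -0.06, was -0.51 relative to it. The share of calls that were higher was 46.8% with TMM, 59.6% by library size only and 95.2% on TPM.

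In the overexpression experiment most members tested were called higher in MUC1-C OE cells, and the largest of these rises were those of DNA2, UBE2T, BLM and EXO1. Of 28 tested, 17 (60.7%) were called higher in MUC1-C OE cells, where 33.2% of all 13836 genes were, and 3 were called lower (RAD51C, ERCC4 and RAD51D), where 34.1% were. The number called lower became 6 without MUC1-C OE replicate 1, which added BRCA1, BRCA2 and FANCD2, where 34.3% of all genes were called lower. It was also 6 with at least 10 counts in each library, which added BRCA2, FANCD2 and PALB2, where 33.4% of all genes were. All MUC1-C OE libraries lay above all LNCaP libraries for the same 17, against 34.4% of all genes, and below them for 4, against 35.9%, the additional one being PALB2. The median log2 fold change was 0.33 for the members and -0.01 for all genes. The sum over the 28 genes was 2107, 2053 and 2108 TMM-normalized CPM in LNCaP replicates 1 to 3 and 2672, 2633 and 2555 in MUC1-C OE. Scaling by library size only put the median of all genes at -0.16. It moved the share of calls that were higher from 49.4% to 32.3%. In that fit 14 members were called higher, where 22.04% of all genes were, and 8 lower, where 46.17% of all genes were. The median of the members relative to that of all genes remained 0.34.

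**Figure D2:**
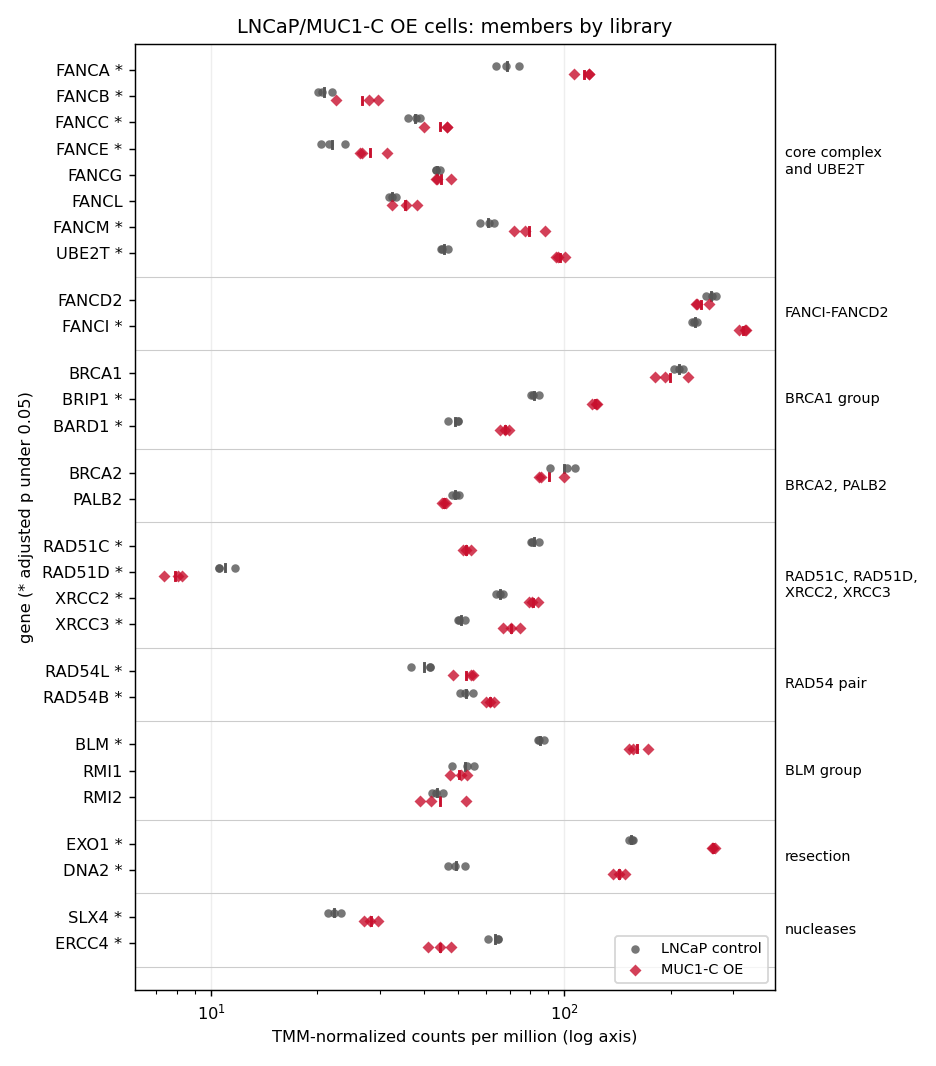
TMM-normalized CPM (log axis) of the 28 genes tested, grouped by role, in the 3 LNCaP libraries (grey circles) and the 3 MUC1-C OE libraries (red diamonds); vertical ticks are group means and asterisks mark an adjusted p under 0.05. MUC1-C OE libraries lie to the right for 17 genes, with DNA2 and UBE2T farthest apart, and to the left for RAD51C, RAD51D, ERCC4 and PALB2.

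FANCD2 and FANCI form the clamp that closes on DNA once both are ubiquitinated. FANCD2 was at 136, 120.1 and 121 CPM in vehicle replicates 1 to 3 and at 61.9, 40.8 and 48.7 in the libraries labelled DOX. The groups were far apart, and the fit gave a log2 fold change of -1.32 (SE 0.15, adjusted p = 0.000815, edgeR, BH), the largest drop of any member. In the overexpression experiment FANCD2 was at 261, 251 and 269 CPM in LNCaP and at 257, 236 and 237 in MUC1-C OE, which overlapped (log2 fold change -0.10, adjusted p = 0.0885, edgeR, BH; it was 0.00771 without MUC1-C OE replicate 1, and FANCD2 was also called lower by library size only or with at least 10 counts in each library). Its partner FANCI was at 129, 111 and 102 CPM in vehicle libraries and at 74.5, 44.6 and 58.3 in those labelled DOX, again without overlap (log2 fold change -0.95, SE 0.18, adjusted p = 0.00593, edgeR, BH). In MUC1-C OE cells FANCI rose from 237, 230 and 233 CPM to 324, 326 and 312 (log2 fold change 0.46, SE 0.04, adjusted p = 6.59e-08, edgeR, BH). Both parts of the clamp therefore moved alike with DOX, while only FANCI was called with MUC1-C OE; the difference between them was not tested. FANCD2 has pseudogenes, FANCD2P1 and FANCD2P2, and lies over FANCD2OS on the other strand, and FANCI overlaps POLG in the same manner. Whether the counting used strand is not given in the sources used here, so reads of such partners may be mixed.

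The core complex carries the ubiquitin to that clamp, and 4 of its 9 genes, counted with UBE2T, were called lower in the libraries labelled DOX. FANCC, which joins FANCE and FANCF in the arm that holds the clamp, was at 29.98, 25.7 and 28.7 CPM in vehicle and 19.1, 15.6 and 12.7 in the libraries labelled DOX (log2 fold change -0.83, SE 0.16, adjusted p = 0.00652, edgeR, BH). FANCA, the scaffold that pairs with FANCG, was at 36.2, 22.9 and 21.5 CPM against 18.6, 11.8 and 15.3 (log2 fold change -0.82, SE 0.23, adjusted p = 0.0295, edgeR, BH). FANCE, which binds FANCD2, was at 6.96, 10.5 and 9.88 CPM against 5.49, 5.39 and 5.02 (log2 fold change -0.78, adjusted p = 0.0198, edgeR, BH). None of these 3 overlapped between groups, but vehicle replicate 1 alone was far above the others for FANCA. UBE2T was at 76.7, 55.1 and 60.1 CPM in vehicle and at 45.8, 38.7 and 41.7 in the libraries labelled DOX (log2 fold change -0.61, SE 0.14, adjusted p = 0.0121, edgeR, BH). FANCG did not overlap between groups either, with a log2 fold change of -0.63, but its adjusted p was 0.0564 (edgeR, BH); it was called without DOX replicate 1 (adjusted p = 0.0342, edgeR, BH). FANCB, FANCF, FANCL and FANCM overlapped between groups, with log2 fold changes of -0.49, -0.32, 0.01 and -0.07. Leaving out 1 library ended the call of FANCA in 3 of 6 fits (vehicle replicate 1 and the libraries labelled DOX replicates 2 and 3, adjusted p up to 0.0941, edgeR, BH). It ended that of FANCE in 3 (vehicle replicates 2 and 3 and DOX replicate 3, adjusted p up to 0.0842, edgeR, BH) and that of UBE2T without DOX replicate 3 (adjusted p = 0.0511, edgeR, BH), while FANCC was called in all 6.

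In MUC1-C OE cells 6 of the 8 core genes tested were called higher and 0 lower. UBE2T rose from 44.9, 46.8 and 45.0 CPM to 100.6, 94.9 and 95.9, the second largest rise of any member (log2 fold change 1.09, SE 0.05, adjusted p = 1.24e-11, edgeR, BH). FANCA rose from 74.5, 68.2 and 64.1 CPM to 117, 106 and 117 (log2 fold change 0.72, SE 0.06, adjusted p = 1.40e-08, edgeR, BH). For both genes the spread within each group was small beside the gap. The rises of FANCM, the translocase that anchors the complex to stalled forks, FANCE, FANCB and FANCC were smaller, with log2 fold changes of 0.38, 0.36, 0.35 and 0.23, and those of FANCB and FANCC were not called by library size only. FANCG and FANCL, the ligase subunit itself, were not called (log2 fold changes 0.04 and 0.12), and FANCL was called when MUC1-C OE replicate 3 was left out (adjusted p = 0.0374, edgeR, BH). FANCF had 3 to 9 counts in each library of this experiment and was not tested, whereas it had 1144 to 1457 counts in each silencing library. The tables were made separately, and no comparison was made across them. FANCA overlaps ZNF276, FANCF GAS2 and FANCL VRK2, each on the other strand.

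BRCA1 works as a pair with BARD1, and BRIP1 is the helicase that docks on BRCA1. BARD1 was at 364, 344 and 377 CPM in vehicle and 239, 243 and 211 in the libraries labelled DOX (log2 fold change -0.65, SE 0.10, adjusted p = 0.00229, edgeR, BH). Its groups lay far apart beside the spread within each, and it was called in all 6 fits that left out a library. BRIP1 was at 47.7, 32.9 and 32.3 CPM in vehicle and 24.0, 13.3 and 17.5 in the libraries labelled DOX (log2 fold change -1.04, SE 0.23, adjusted p = 0.0111, edgeR, BH), a call that was lost narrowly without DOX replicate 3 (adjusted p = 0.0513, edgeR, BH). BRCA1 itself was at 76.2, 51.5 and 50.7 CPM against 50.2, 23.9 and 36.2. The groups stood apart only narrowly, and BRCA1 was not called (log2 fold change -0.69, SE 0.26, adjusted p = 0.0751, edgeR, BH), but it was called without DOX replicate 1 (adjusted p = 0.0263, edgeR, BH) and with DESeq2. With MUC1-C OE, BRIP1 rose from 81.4, 80.2 and 84.5 CPM to 123, 123 and 119.5 (log2 fold change 0.57, SE 0.05, adjusted p = 1.42e-08, edgeR, BH). BARD1 rose from 49.8, 49.9 and 46.9 to 68.0, 69.5 and 65.8 CPM (log2 fold change 0.47, SE 0.06, adjusted p = 1.26e-06, edgeR, BH). BRCA1 was at 211, 204 and 216 CPM in LNCaP and 223, 192 and 181 in MUC1-C OE, which overlapped (log2 fold change -0.08, adjusted p = 0.264, edgeR, BH), and without MUC1-C OE replicate 1 it was called lower (adjusted p = 0.00186, edgeR, BH). In both experiments the 2 partners of BRCA1 were called and BRCA1 was not, a difference that was not tested, and BRCA1 shares sequence with the pseudogene BRCA1P1.

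BRCA2 acts on resected DNA ends, and PALB2 bridges it to BRCA1. BRCA2 was at 85.2, 81.9 and 80.3 CPM in vehicle, close together, and at 62.8, 27.0 and 43.1 in the libraries labelled DOX, which were far apart (log2 fold change -0.90, SE 0.25, adjusted p = 0.0269, edgeR, BH). Its call was lost in 4 of 6 fits, without each vehicle replicate and without DOX replicate 3 (adjusted p from 0.0708 to 0.0955, edgeR, BH), and also when no filter on low counts was used (adjusted p = 0.186, edgeR, BH). PALB2 was at 36.4, 29.2 and 30.8 CPM in vehicle and at 19.7, 21.1 and 17.4 in the libraries labelled DOX (log2 fold change -0.73, SE 0.13, adjusted p = 0.00490, edgeR, BH), and it was called in all 6 fits. With MUC1-C OE neither was called. BRCA2 was at 107, 90.9 and 102 CPM in LNCaP and 99.98, 86.0 and 84.5 in MUC1-C OE (log2 fold change -0.15, adjusted p = 0.0755, edgeR, BH), and it was called lower without LNCaP replicate 2 or MUC1-C OE replicate 1 and under several of the other settings, while DESeq2 did not call it. PALB2 was at 48.1, 49.3 and 50.2 CPM against 45.7, 46.4 and 44.9, lower in each library by a small step (log2 fold change -0.11, adjusted p = 0.115, edgeR, BH), and it was called by library size only or with at least 10 counts in each library.

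RAD51C, RAD51D, XRCC2 and XRCC3 form small complexes that assist strand pairing, and 0 of 4 were called with DOX by edgeR or DESeq2 without a replicate block, and 0 had an unadjusted p under 0.05 in the edgeR fit. They had, in this order, log2 fold changes of -0.19, -0.40, -0.56 and -0.33, and each overlapped between groups. With MUC1-C OE all 4 were called, in opposite directions. RAD51C fell from 80.7, 81.0 and 84.5 CPM to 54.3, 52.6 and 51.5 (log2 fold change -0.64, SE 0.05, adjusted p = 1.49e-08, edgeR, BH). RAD51D, the partner of XRCC2, fell from 10.5, 10.6 and 11.7 CPM to 7.37, 8.26 and 8.07 (log2 fold change -0.47, SE 0.11, adjusted p = 0.00112, edgeR, BH). XRCC3, which pairs with RAD51C, rose from 50.3, 52.4 and 50.02 CPM to 67.1, 70.4 and 74.7 (log2 fold change 0.48, SE 0.06, adjusted p = 1.53e-06, edgeR, BH). XRCC2 rose from 67.0, 64.0 and 65.7 CPM to 79.5, 80.8 and 84.2 (log2 fold change 0.31, SE 0.05, adjusted p = 5.18e-05, edgeR, BH). In each known pair, RAD51C with XRCC3 and RAD51D with XRCC2, one gene was lower and the other higher. RAD51D shares its strand with the readthrough gene RAD51L3-RFFL, and XRCC3 overlaps KLC1.

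RAD54L and RAD54B are motors that remodel DNA during strand exchange. RAD54L was at 39.4, 31.6 and 30.6 CPM in vehicle and at 27.0, 12.6 and 17.2 in the libraries labelled DOX (log2 fold change -0.84, SE 0.25, adjusted p = 0.0346, edgeR, BH), and its call was lost in 4 of 6 fits, without each vehicle replicate and without DOX replicate 3 (adjusted p from 0.0747 to 0.123, edgeR, BH), and again with no filter (adjusted p = 0.129, edgeR, BH). With MUC1-C OE it rose from 36.8, 41.5 and 41.6 CPM to 48.3, 54.5 and 55.1 (log2 fold change 0.40, SE 0.07, adjusted p = 9.00e-05, edgeR, BH). RAD54B had log2 fold changes of -0.25 with DOX, not called, and 0.23 with MUC1-C OE (SE 0.06, adjusted p = 0.00257, edgeR, BH), the latter lost by library size only. RAD54L overlaps LRRC41 on the other strand and RAD54B shares its strand with FSBP.

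BLM, the helicase lost in Bloom syndrome, dissolves double Holliday junctions with RMI1 and RMI2. BLM was at 23.1, 17.5 and 19.4 CPM in vehicle and at 14.7, 5.36 and 10.9 in the libraries labelled DOX. Its groups did not overlap, but the 3 values labelled DOX were widely spread and the call was close to the threshold (log2 fold change -0.96, SE 0.31, adjusted p = 0.0461, edgeR, BH). It was lost without each vehicle replicate and without DOX replicate 3 (adjusted p from 0.0819 to 0.127, edgeR, BH), and also with no filter or with the other scalings. RMI1 was at 123, 102 and 105 CPM in vehicle and at 85.8, 67.7 and 62.9 in the libraries labelled DOX (log2 fold change -0.61, SE 0.13, adjusted p = 0.0109, edgeR, BH), and was narrowly lost without DOX replicate 3 (adjusted p = 0.0505, edgeR, BH). RMI2 was not called (log2 fold change -0.16). With MUC1-C OE, BLM rose from 84.0, 84.5 and 87.3 CPM to 157, 172 and 152 (log2 fold change 0.91, SE 0.05, adjusted p = 1.11e-10, edgeR, BH), while RMI1 and RMI2 overlapped between groups, at -0.05 and 0.03.

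EXO1 and DNA2 are the nucleases of long-range end resection, and with MUC1-C OE both rose strongly. DNA2 was at 52.2, 46.7 and 49.1 CPM in LNCaP and at 143, 149 and 137 in MUC1-C OE, a 2.89-fold rise and the largest of any member (log2 fold change 1.53, SE 0.06, adjusted p = 2.48e-13, edgeR, BH). EXO1 was at 153, 156 and 155 CPM in LNCaP and at 266, 262 and 264 in MUC1-C OE (log2 fold change 0.77, SE 0.04, adjusted p = 7.36e-11, edgeR, BH). In LNCaP-ER cells DNA2 was at 36.5, 31.4 and 31.2 CPM in vehicle and at 24.8, 14.2 and 17.8 in the libraries labelled DOX (log2 fold change -0.81, SE 0.19, adjusted p = 0.0151, edgeR, BH), a call lost without DOX replicate 3 (adjusted p = 0.0663, edgeR, BH). EXO1 was at 30.7, 19.1 and 15.6 CPM in vehicle and at 21.7, 8.76 and 16.2 in the libraries labelled DOX. Its groups overlapped, and it was not called (log2 fold change -0.49, SE 0.33, adjusted p = 0.308, edgeR, BH).

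SLX4 is the platform on which ERCC4, the nuclease also known as XPF, and other nucleases act. Neither was called with DOX. SLX4 had the highest fitted value of the members there, 0.20, with overlapping groups, and ERCC4 was at 40.6, 40.3 and 40.9 CPM in vehicle and at 36.0, 28.8 and 32.6 in the libraries labelled DOX, which did not overlap (log2 fold change -0.32, SE 0.11, adjusted p = 0.0550, edgeR, BH). ERCC4 was called without DOX replicate 1 (adjusted p = 0.0478, edgeR, BH). With MUC1-C OE, ERCC4 fell from 60.9, 64.9 and 64.9 CPM to 41.1, 47.9 and 44.5 (log2 fold change -0.52, SE 0.07, adjusted p = 1.83e-06, edgeR, BH), and SLX4 rose from 21.4, 22.3 and 23.3 to 28.2, 27.0 and 29.6 CPM (log2 fold change 0.34, SE 0.07, adjusted p = 0.000626, edgeR, BH).

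Set side by side, the experiments share no library and were fitted separately. Of the 28 members tested in both, 10 (35.7%) were called lower with DOX and higher with MUC1-C OE: RAD54L, FANCC, UBE2T, BRIP1, BLM, FANCE, DNA2, FANCA, BARD1 and FANCI. Of the 11682 genes tested in both under the same symbol, 7.94% were so called. None of the 28 was called lower in both, where 3.56% of all genes were. A group of 4 members was called lower with DOX and not called with MUC1-C OE (FANCD2, RMI1, PALB2 and BRCA2), 7 were called higher with MUC1-C OE only (SLX4, XRCC2, FANCB, EXO1, FANCM, RAD54B and XRCC3), and 3 lower with MUC1-C OE only (RAD51C, ERCC4 and RAD51D). FANCL, FANCG, RMI2 and BRCA1 were called in neither. Without the library labelled DOX replicate 3 the number of 10 became 3, and when a log2 fold change of 1 or more in size was also required in both it became 0.

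**Figure D3:**
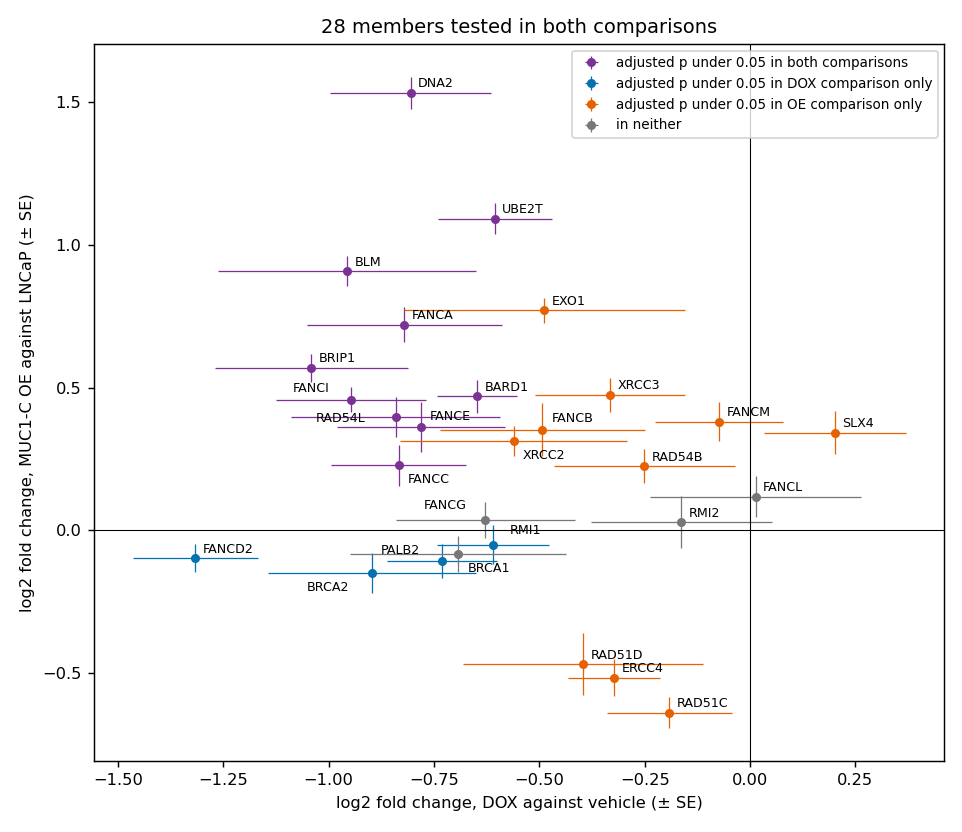
Log2 fold change of the 28 genes tested in both experiments, with DOX on the horizontal and MUC1-C OE on the vertical axis; bars are standard errors and colours show where the adjusted p was under 0.05. The 10 genes called in both lie at the upper left, FANCD2, BRCA2, PALB2 and RMI1 lie at the left near 0 on the vertical axis, and RAD51C, RAD51D and ERCC4 lie below it.

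Levels of different genes were compared per length only, on the deposited TPM of the LNCaP-ER cells. UBE2T led with 62.4 ± 19.9 TPM in vehicle libraries (SD, n = 3), followed by BARD1 with 41.6 ± 5.97. RMI1 (20.8 ± 5.05) and RAD51C (20.7 ± 5.30) came next and did not differ beyond their spread, and then FANCI (15.5 ± 4.15) and FANCD2 (12.95 ± 2.79). At the other end stood RAD51D with 1.32 ± 0.65 TPM and FANCB with 1.71 ± 0.71, and 17 of the 29 were under 5 TPM. In this order 25 of 28 neighbouring pairs overlapped in their vehicle libraries. The ranges across libraries stood apart only at the steps from UBE2T to BARD1, from BARD1 to RMI1 and from FANCD2 to FANCF. Within libraries, some overlapping pairs still kept their order. RAD51C was at 26.6, 19.2 and 16.3 TPM in vehicle replicates 1 to 3, above FANCI at 20.04, 14.6 and 11.9. FANCI was in turn above FANCD2 in each, at 16.1, 12.04 and 10.7. RMI1 and RAD51C changed order, with RMI1 at 18.7 TPM in replicate 2 and 17.05 in replicate 3. The remaining overlapping pairs were not compared library by library. The small nuclear RNA gene RN7SK took 35.2% to 37.7% of TPM in vehicle libraries and 24.6% to 31.4% in those labelled DOX, so TPM of every other gene is scaled against it.

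The other genes of the same pathways had a smaller median change. Of 54 further Fanconi anemia and recombination genes, 51 were tested with DOX, and 15 (29.4%) were called lower and 4 (7.84%) higher, with a median log2 fold change of -0.21; without vehicle replicate 2 or 3 the 19 calls became 6, and without DOX replicate 3 they became 4. The smallest p were those of MND1, known for its part in meiotic strand exchange (log2 fold change -1.62), and PARPBP, a known restraint on recombination (-1.08), among those lower, and ZSWIM7 (0.48) and FAAP100 (0.59), both partners of the complexes above, among those higher. With MUC1-C OE 49 were tested, 19 (38.8%) called higher and 9 (18.4%) lower, with a median of 0.08. The end-resection factor RBBP8 (0.70) and BABAM1 of the BRCA1-A complex (0.79) rose, while SWI5 (-0.60) and the break sensor NBN (-0.30) fell.

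Other repair routes were described in the same way. Of 19 genes of non-homologous end joining tested with DOX, 3 (15.8%, near the 14.5% of all genes) were called lower, among them PRKDC, the catalytic subunit of DNA-PK (log2 fold change -0.73), and TDP1 (-0.73), and 1 higher, APTX (0.36), with a median of -0.10. With MUC1-C OE 9 of 20 (45.0%) were called higher, with the smallest p for TDP1 (0.87) and TDP2 (0.82), and 6 lower, with the smallest p for APTX (-0.57) and the ligase LIG4 (-0.68). Of 17 nucleotide excision repair genes, 4 (23.5%) were called lower with DOX, among them GTF2H3 (-0.60) and DDB2 (-0.51), and DDB1 higher (0.32), with a median of 0.05; the 5 calls became 1 without vehicle replicate 2 or DOX replicate 3 and 2 without vehicle replicate 3. With MUC1-C OE 8 of the 17 (47.1%) were called higher, among them ERCC2 (0.94), and 4 (23.5%) lower, with the smallest p for DDB2 (-0.55) and ERCC3 (-0.21), with a median of 0.07.

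Cell cycle genes moved beside the members in both experiments. Of 43 S phase markers (a list packaged with Seurat, of which BLM and EXO1 are members here) 13 (30.2%) were called lower and 0 higher with DOX (median log2 fold change -0.44), and of 54 G2/M markers 41 (75.9%) were called lower and 1, TUBB4B (0.83), higher, with a median of -1.08. PRIM1 (-1.26) and WDR76 (-2.12) of the S phase list and NEK2 (-1.62) and ANP32E (-1.46) of the G2/M list had the smallest p. The 13 S phase calls became 8 without any one vehicle replicate or without DOX replicate 3. The S phase markers summed to 2078 to 2949 CPM in vehicle libraries and to 1374 to 2270 in those labelled DOX, and the G2/M markers to 5642 to 7688 against 3196 to 4988. With MUC1-C OE 35 of the 43 S phase markers (81.4%) were called higher and 3 (6.98%) lower, with the smallest p for DTL (1.52) and EXO1, and their sum was 7795 to 7964 CPM in LNCaP and 8797 to 9173 in MUC1-C OE. Of the 53 G2/M markers tested there, 39 (73.6%) were called higher, with the smallest p for LBR (1.17) and CENPF (1.59), and 6 (11.3%) lower, with the smallest p for CKAP2 (-0.47) and CBX5 (-0.36), with sums of 9908 to 10159 CPM against 11805 to 12246. The part of the cell cycle in the values of the members was not tested. Of 21 regulators of the E2F, DREAM and MYC group tested with DOX, 11 (52.4%) were called lower and 0 higher (median -0.48), with the smallest p for the pocket protein RBL1 (-1.78) and LIN54 (-0.83). With MUC1-C OE 12 of 22 (54.5%) were called higher, with the smallest p for LIN9 (1.37) and LIN52 (0.82), and 6 (27.3%) lower, with the smallest p for RB1 (-0.82) and FOXM1 (-0.36). Of the 6 members with E2F letters in the printed promoters, 4 were called lower with DOX, and of the 19 with a promoter and no such letters 8 were. With MUC1-C OE 4 of the 6 were called higher and 0 lower, against 10 higher and 3 lower of the other 18 tested.

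**Figure D4:**
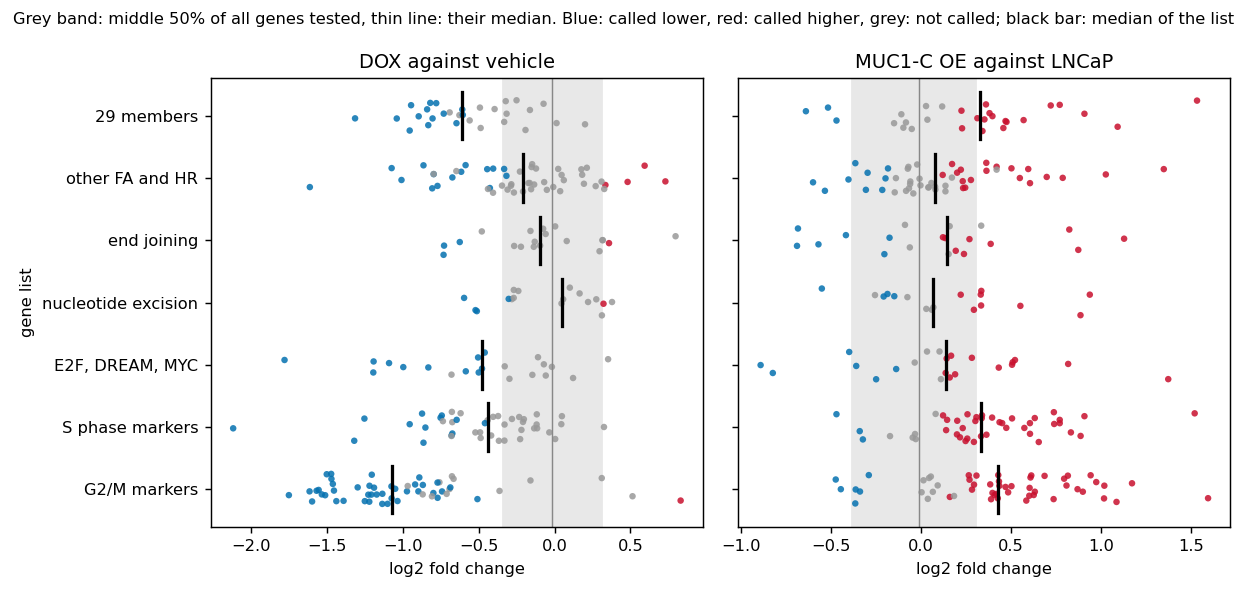
Log2 fold change of each tested gene by list, with DOX on the left and MUC1-C OE on the right; black bars are medians of the lists and the grey band holds the middle 50% of all genes tested. With DOX the median of the members (-0.61) lies between those of the S phase (-0.44) and G2/M markers (-1.08), and with MUC1-C OE (0.33) it is like that of the S phase markers (0.33).

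The plot of fits that left out 1 library shows how far the calls rested on single libraries. With DOX the number of members called lower ran from 5 to 17, and 5 genes, BARD1, FANCC, FANCD2, FANCI and PALB2, were called in all 6 fits. With MUC1-C OE the number called in either direction ran from 20 to 23, of which 17 or 18 were higher and 3 to 6 lower, and each of the 20 called with all libraries was called in each of them.

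**Figure D5:**
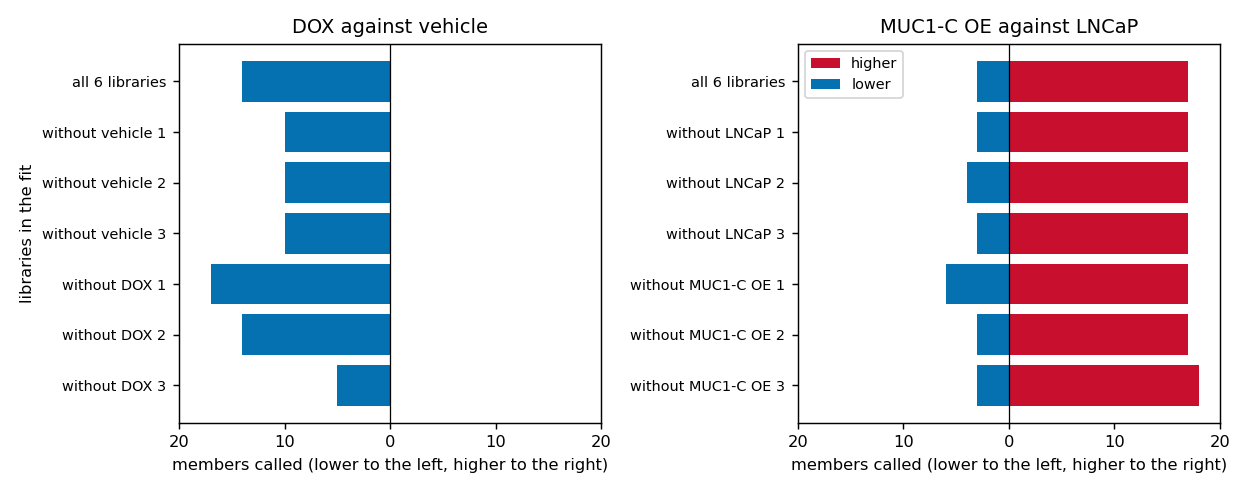
Number of members called lower (left, blue) and higher (right, red) with all 6 libraries and with each library left out, for DOX (left panel) and MUC1-C OE (right panel). With DOX the count is lowest, 5, without the library labelled DOX replicate 3 and highest, 17, without replicate 1; with MUC1-C OE 17 or 18 are called higher in each fit.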

How the data were processed

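RNA-Seq libraries (TruSeq Stranded mRNA, per the labels) of 12 samples were analysed, 3 in each of 4 groups. The authors aligned reads with STAR to GRCh38 and deposited raw read counts per gene for both experiments, and for the silencing experiment also TPM, which divides by gene length and scales each library to 1 sum. The columns of the authors' own comparisons were not used, nor were 12 other columns of per-sample values in the overexpression table. Whether the counting used strand is not given in the sources used here.

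From the deposited counts, edgeR (version 4.0.16, in R 4.3.3) was run on each table separately with filterByExpr, TMM factors and robust quasi-likelihood fits, with Benjamini-Hochberg adjustment over all genes tested and a threshold of 0.05. Log2 fold changes are given with standard errors, and levels as TMM-normalized CPM. The steps were tested on simulated data with 200 changed genes. Alternatives were DESeq2 1.42.0, scaling by median-of-ratios factors or by library size, testing genes without a filter or with a minimum of 10 counts in each library, each library left out, the replicate number as a block, a log2 fold change of 1 or more in size, and limma 3.58.1 on log2(TPM + 1) or log2(TPM + 0.1), with and without a minimum of 1 TPM in 3 libraries. A fold change on the log2(TPM + 1) scale understates the change of low genes.

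The members and gene lists were chosen with earlier results of these data known. Beyond the members, the genes named in each list were those with the smallest adjusted p in each direction, at most 2; some list genes are counted but not reported here by name. List genes missing from a table were matched through older symbols in the RefSeq gene table. S phase and G2/M markers came from Seurat 5.3.0. Total counts were 28045894 to 45807989 per silencing library and 13806856 to 19208944 per overexpression library.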

Additional observations from a re-analysis of the deposited data

How the results depend on the processing

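With DOX, the number of genes changed (4006) ran from 2002 to 5243 when 1 library was left out. It was 5252 and 5282 on TPM with a pseudocount of 1 and 0.1, and 1589 on TPM with no filter. With a log2 fold change of 1 or more in size it was 988. The number of members called (14) ran from 5 to 17 when 1 library was left out, and was 2 on TPM with a pseudocount of 1 or 0.1, 0 on TPM with no filter (limma; 2 at an unadjusted p under 0.05) and 2 past that fold size (FANCD2 and BRIP1). With MUC1-C OE the genes changed (9312) ran from 8486 to 9512 and the members called (20) from 20 to 23, with 1917 and 2 past that fold size. The members called lower with DOX and higher with MUC1-C OE (10) ran from 3 to 10 when 1 library was left out, and 0 passed that fold size in both. Whether replicate numbers pair the libraries was not settled. Over all genes, correlations of same-numbered deviations were -0.0739 to 0.0868 with DOX and -0.149 to -0.0292 with MUC1-C OE. Vehicle replicate 1 was the highest of its group for 23 of 29 members, and DOX replicate 1 the lowest of its group for 0. With the replicate block 17 members and 4226 genes were called with DOX, and 21 members and 8965 genes with MUC1-C OE. The members gained were BRCA1, FANCG and XRCC2 (adjusted p = 0.00212, 0.0169 and 0.0163, edgeR, BH) with DOX and BRCA2 with MUC1-C OE. The 5 members highest in TPM were the same 5 with each library left out.

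Members that turned direction were ones not called. On TPM with DOX, with a pseudocount of 1 (with and without the filter) and then 0.1, these were FANCB at 0.0505 and 0.0868, FANCF at 0.2173 and 0.2343, FANCM at 0.3601 and 0.4534, RAD51C at 0.3373 and 0.3516, RAD51D at 0.0976 and 0.1827, XRCC3 at 0.1877 and 0.2194, RAD54B at 0.1776 and 0.2383, RMI2 at 0.3151 and 0.3728, EXO1 at 0.0168 and 0.0306, and ERCC4 at 0.1828 and 0.2224, against a median of all genes of 0.45, 0.52 and, with no filter, 0.18. With 1 library left out, FANCL ran from -0.1365 to 0.2704, FANCM from -0.2546 to 0.0755, RAD54B from -0.5242 to 0.0007 and RMI2 from -0.3456 to 0.0309 with DOX, and FANCG from -0.0090 to 0.0729, RMI1 from -0.1032 to 0.0042 and RMI2 from -0.1100 to 0.1309 with MUC1-C OE. By library size only, FANCG was at -0.1176, FANCL at -0.0357 and RMI2 at -0.1253 with MUC1-C OE, and RMI2 was at -0.0001 with at least 10 counts in every library. The cause was not tested.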
